A study of Mus musculus with 6 samples.

Results

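Type I interferon-stimulated genes are a set of 41 genes whose transcription is switched on by interferon alpha and beta, described here in mouse spleens that overexpressed AIMP2-DX2 and in control spleens. Members were the probe sets annotated to exactly 1 of the 41 symbols, taking the probe set of highest mean over the 6 arrays where a gene had several. This left 37 of the 41 among 22180 measured genes. Oas1a, Dtx3l and Ifi27l2a share their probe sets with Oas1g, Parp9 and Ifi27l2b, and no probe set was listed for Ifi44. The expression of these 4 was therefore not analysed here.

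The 3 DX2 mice had the genotype CAG-rtTA; TRE DX2/+, in which the CAG promoter, active in most tissues, drives rtTA, and rtTA with doxycycline switches on the TRE DX2 transgene. The 3 control mice were littermates with the TRE DX2 transgene and no activator. DX2 is a splice variant that lacks part of AIMP2, a protein that holds tRNA synthetases together in a complex. All 6 mice ate pellets with doxycycline (6.25 mg/kg) from the age of 8 weeks until they were 1 year old, when total RNA of the whole spleen was hybridised to 1 Affymetrix array per mouse. Because only the DX2 mice carried rtTA, effects of DX2 and of rtTA cannot be told apart. The probe set of Aimp2 is annotated to Eif2ak1 too and gave no check of the labels.

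Type I interferons bind the receptor IFNAR, whose kinases JAK1 and TYK2 phosphorylate STAT2. With IRF9 it acts in a complex that binds interferon-stimulated response elements in promoters and raises transcription of antiviral genes, among them the sensors and transcription factors that amplify the response. In spleen the response is known from marginal zone and red pulp macrophages, dendritic cells and lymphocytes.

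Values are log2 expression values, and a difference is DX2 minus control on that scale. Array medians over genes lay between 5.42 and 5.46, with precision limited by the small number of arrays. The groups were not matched for sex. Xist was high in control spleens 1 and 2 (10.89 and 10.54) and low on the other 4 arrays (3.89 to 4.29). Results are also given with a sex term in the model. Its differences set the DX2 mean against control spleen 3 alone, the only control with low Xist. They therefore equal the differences among the male spleens and are no second check. The B cell marker Cd79a (9.45 to 11.75) and the red pulp macrophage regulator Spic (8.76 to 9.67), markers of spleen cells, read high on all arrays. In whole spleen, fewer cells of a type and less RNA per cell cannot be told apart.

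The interferon-stimulated genes were low in DX2 spleen 1 and high in DX2 spleens 2 and 3, with the control spleens between them. Their median value, measured from the control mean of each gene, was -0.43 in DX2 spleen 1, 0.59 in DX2 spleen 2 and 0.48 in DX2 spleen 3, against 0.16, -0.07 and -0.06 in control spleens 1, 2 and 3. DX2 spleen 1 had the lowest value of the 3 DX2 spleens for 33 of 37 members (89.2%), against 38.6% of all genes. For 13 members (35.1%, against 2.44% of all genes), DX2 spleen 1 lay below all 3 control spleens while DX2 spleens 2 and 3 both lay above them. These counts describe 6 arrays, the pattern was picked after its values were seen, and no test was made of it.

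**Figure D1:**
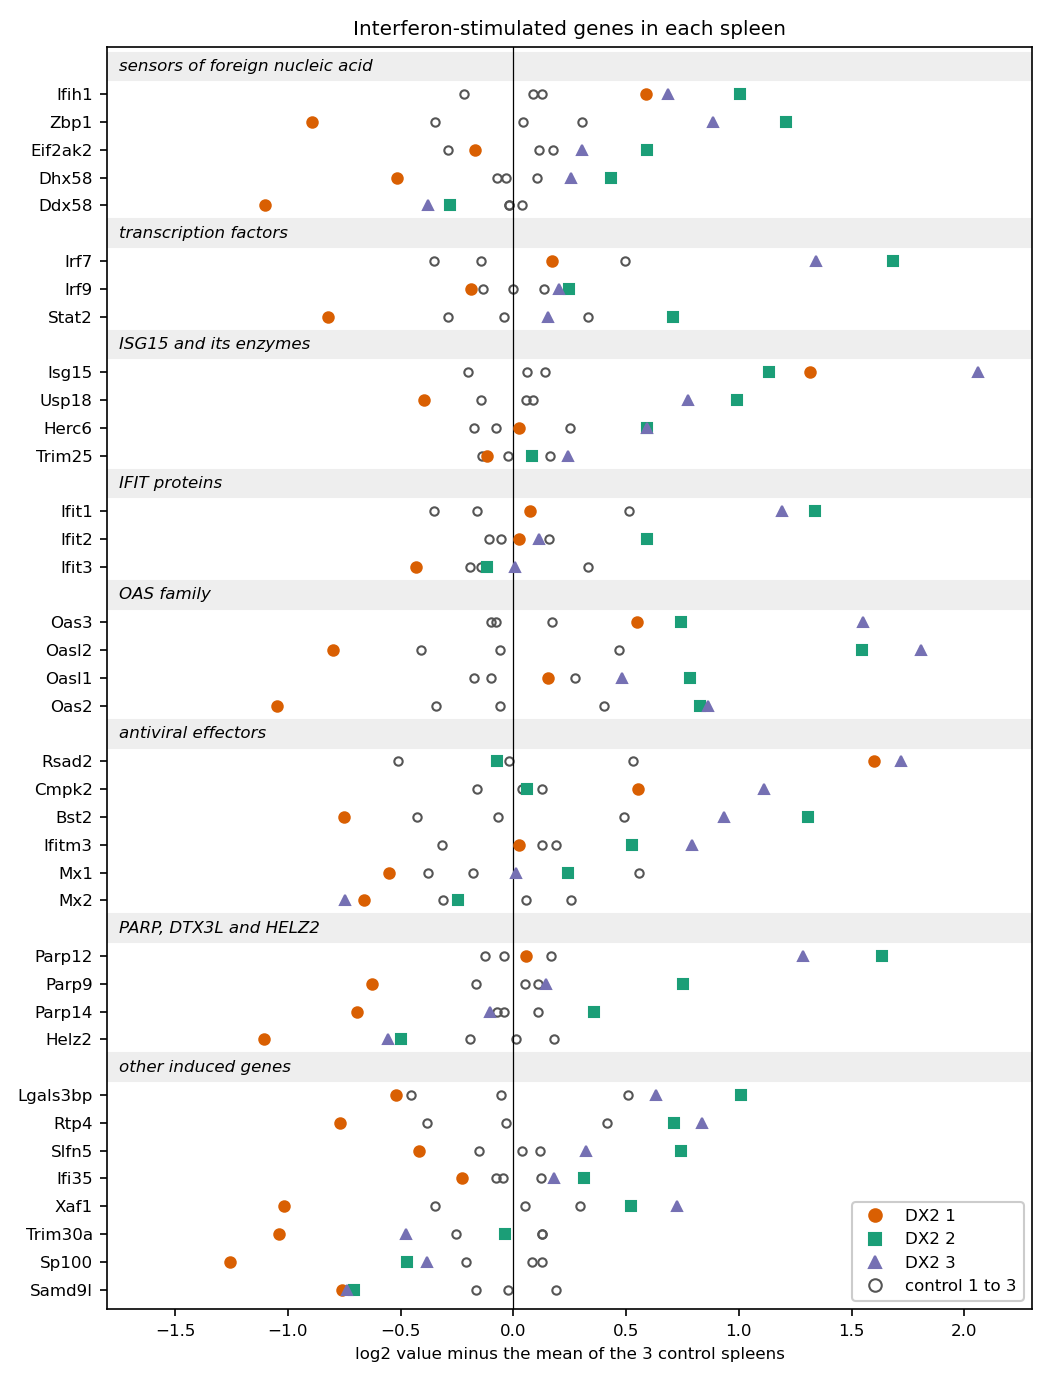
Each row is 1 of the 37 measured interferon-stimulated genes, grouped by role; the horizontal axis is the log2 value minus the mean of the 3 control spleens. Filled symbols are the 3 DX2 spleens and open circles the control spleens; DX2 spleen 1 lies left of the other DX2 spleens for 33 genes, and Isg15, Ifih1 and Oas3 have all DX2 spleens right of all control spleens.

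No member passed the test between the groups. At an adjusted p of 0.05 (limma over all genes, Benjamini-Hochberg), 0 of 37 members were called, against 70 of 22180 genes (0.316%). At an unadjusted p under 0.05 there were 7 members higher in DX2 (18.9%, against 8.13% of all genes), namely Isg15, Ifih1, Oas3, Irf7, Parp12, Oasl1 and Ifit1. Another 5 were lower (13.5%, against 7.82% of all genes), namely Samd9l, Helz2, Sp100, Mx2 and Ddx58. The groups did not overlap for 3 members higher in DX2 (8.11%, against 10.7% of all genes) and 4 lower (10.8%, against 11.2%), shares near those of all genes. In all, 28 of 37 members had a positive difference, with a median of 0.24, against 0.01 over all genes.

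The spread within DX2 was wide. The median range over the 3 DX2 spleens was 1.00 for the members and 0.32 for all genes, while over the 3 control spleens it was 0.38 for the members and 0.27 for all genes. A range above 1 was found within DX2 for 19 members (51.4%, against 6.05% of all genes) and within control for 1 member, Rsad2 (2.7%, against 1.82%). Leaving out DX2 spleen 1 gave a median difference of 0.59 and 30 positive members, and leaving out DX2 spleen 2 gave 0.03 and 20 positive members. Without DX2 spleen 2, Isg15 (1.69, adjusted p = 0.0376) and Rsad2 (1.66, adjusted p = 0.0444) passed the test, and 370 genes passed in all. Leaving out a DX2 spleen that reads lowest for a gene must raise its difference, so these fits are description only. With a sex term the median difference was 0.29 and no member passed.

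**Figure D2:**
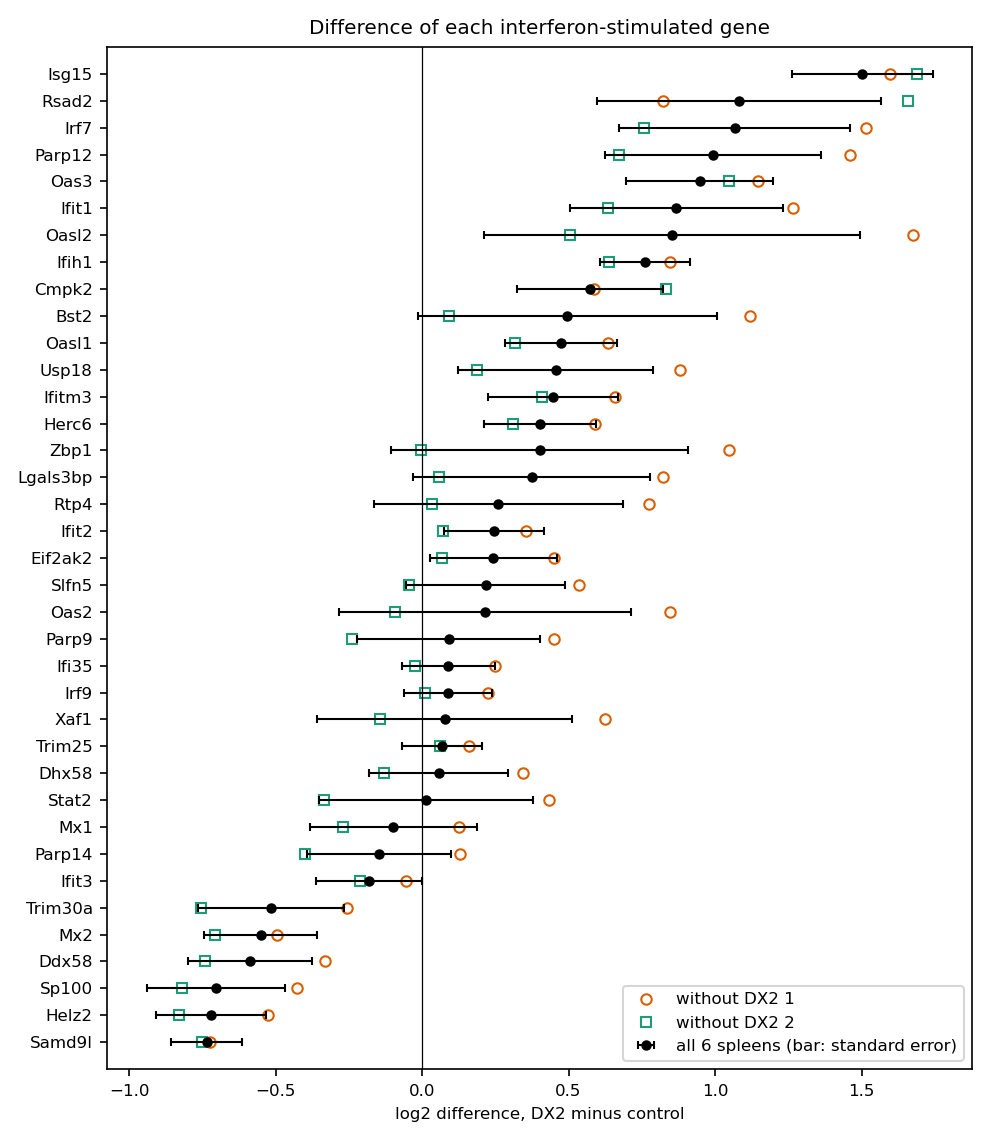
Black points are the log2 difference, DX2 minus control, of each measured interferon-stimulated gene with its standard error over all 6 spleens; open circles leave out DX2 spleen 1 and open squares DX2 spleen 2. Without DX2 spleen 1 most differences move to the right, to 1.68 for Oasl2, while Samd9l stays between -0.75 and -0.72.

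Isg15 had the largest difference. It encodes a ubiquitin-like protein that is attached to other proteins during the response. Isg15 read 7.98, 7.80 and 8.72 in DX2 spleens 1, 2 and 3, against 6.73, 6.80 and 6.46 in control spleens 1, 2 and 3. All DX2 spleens lay above all control spleens, DX2 spleen 3 furthest. The difference was 1.50 (SE 0.24), a 2.83-fold excess in DX2, and missed the threshold over all genes (adjusted p = 0.0638), with 1.70 in the sex-term model.

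The enzymes that act with ISG15 did not share its separation. Usp18, the protease that removes ISG15 and damps receptor signalling, read 6.50, 7.89 and 7.67 in DX2 spleens, against 6.98, 6.95 and 6.75 in control spleens. DX2 spleen 1 was the lowest of the 6 and DX2 spleens 2 and 3 the highest. The difference was 0.46 (SE 0.33) over all spleens, 0.88 without DX2 spleen 1 and 0.19 without DX2 spleen 2. Herc6, a ligase that attaches ISG15 in mouse, read 8.13, 8.69 and 8.69 in DX2 spleens, against 8.35, 8.02 and 7.93 in control spleens. Here DX2 spleen 1 lay among the control spleens and the other DX2 spleens above them. Trim25, a ubiquitin ligase that activates RIG-I, read 7.88, 8.08 and 8.24 in DX2 spleens, against 8.16, 7.97 and 7.86 in control spleens, and the groups overlapped.

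Interferon-stimulated response elements hold repeats of GAAA. The motif GAAANNGAAA (N, any base) was searched on both strands, overlapping matches counted, in windows of 250 bases before to 50 after each transcription start (RefSeq, GRCm38.p6). It was in the windows of 14 of 31 members found in that table (45.2%), against 1079 of 27025 genes (3.99%), and wholly before the start in 10 of 31 members (32.3%) against 3.46% of genes. The 31 include Oas1a, Dtx3l and Ifi44, whose expression was not analysed, and Oas1a has 2 matches before its start. A match is a description of these letters and not of binding. The stretches ending at the base before the start are shown for members with 1 or more matches there that differ in how the spleens were ordered, 5′ to 3′ along the gene, with matches on either strand in capitals. Isg15, higher in all 3 DX2 spleens, lies at chr4:156200819-156200968 on the minus strand and has 3 overlapping matches. Oas3, also higher in all 3, lies at chr5:120777660-120777809 on the minus strand and has 1. The stretches of Ifit1 (chr19:34640739-34640888 on the plus strand) and Bst2 (chr8:71537473-71537622 on the minus strand), high in DX2 spleens 2 and 3 only, have 2 matches each, those of Bst2 overlapping. That of Rsad2 (chr12:26456453-26456602 on the minus strand), high in DX2 spleens 1 and 3, has 1. Other members with matches before the start are not shown. Among them, Ifit3, with no DX2 spleen above the highest control and a difference of -0.18, has 2. Stat2, with a difference of 0.01, has 1, and Trim30a, with a difference of -0.52, has 1 before 1 of its starts.
Isg15: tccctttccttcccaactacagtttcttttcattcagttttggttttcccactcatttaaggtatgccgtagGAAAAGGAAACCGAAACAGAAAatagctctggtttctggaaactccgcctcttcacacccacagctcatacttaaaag
Oas3: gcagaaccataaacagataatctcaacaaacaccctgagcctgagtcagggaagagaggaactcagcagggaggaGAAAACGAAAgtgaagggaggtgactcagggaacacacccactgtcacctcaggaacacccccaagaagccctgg
Ifit1: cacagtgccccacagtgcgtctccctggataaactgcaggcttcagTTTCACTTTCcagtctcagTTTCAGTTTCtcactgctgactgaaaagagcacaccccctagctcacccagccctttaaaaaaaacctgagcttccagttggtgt
Bst2: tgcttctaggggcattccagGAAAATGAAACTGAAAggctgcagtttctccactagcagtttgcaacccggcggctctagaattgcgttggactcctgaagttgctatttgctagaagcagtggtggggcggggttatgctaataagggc
Rsad2: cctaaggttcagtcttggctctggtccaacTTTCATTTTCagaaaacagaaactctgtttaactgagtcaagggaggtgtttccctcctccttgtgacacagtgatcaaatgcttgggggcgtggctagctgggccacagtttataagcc

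Few members had groups that did not overlap, and no test was made of the motif against direction. Of these members Isg15 and Oas3 had it before the start. Ifih1 and Ddx58 had it only after the start, within the transcribed part of the window, where Ifih1 was higher and Ddx58 lower in DX2. Helz2, Samd9l and Sp100, the others that were lower, had no match in their windows. No match says only that these letters are not in that window.

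The sensors of foreign nucleic acid went in different directions. Ifih1 encodes MDA5, which detects long double-stranded RNA, and read 8.34, 8.75 and 8.43 in DX2 spleens 1, 2 and 3, against 7.88, 7.84 and 7.53 in control spleens 1, 2 and 3. All DX2 values lay above all control values, with a difference of 0.76 (SE 0.15) and an adjusted p of 0.093 (limma). Ddx58 encodes RIG-I, the related sensor of short RNA ends, and read 6.95, 7.77 and 7.67 in DX2 spleens, against 8.03, 8.03 and 8.08 in control spleens. All its DX2 values lay below all control values, DX2 spleen 1 furthest, with a difference of -0.59 (SE 0.21) and an adjusted p of 0.239. The control spleens differed by 0.05 at most for Ddx58, whereas the DX2 spleens spanned 0.82.

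The other sensors followed the split among DX2 spleens. Zbp1, a sensor of Z-form nucleic acid that can start necroptosis, read 7.29, 9.39 and 9.07 in DX2 spleens, against 8.49, 8.22 and 7.83 in control spleens. Its DX2 spleen 1 was the lowest array and DX2 spleens 2 and 3 the highest, a range of 2.10 within DX2 against 0.65 within control. The difference of 0.40 (SE 0.51) became 1.05 without DX2 spleen 1 and -0.00 without DX2 spleen 2. Eif2ak2, the RNA-activated kinase PKR that halts translation, read 7.02, 7.78 and 7.49 in DX2 spleens, against 6.90, 7.30 and 7.36 in control spleens, and only DX2 spleens 2 and 3 exceeded the controls. For Dhx58, which encodes LGP2, a regulator of both RNA sensors, the difference was 0.06 (SE 0.24), DX2 spleen 1 again lying below and the other DX2 spleens above all control spleens.

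Among the transcription factors, Irf7 differed most. IRF7 drives transcription of the interferon alpha genes and is itself induced by interferon. Irf7 read 7.47, 8.98 and 8.64 in DX2 spleens 1, 2 and 3, against 7.79, 6.94 and 7.15 in control spleens 1, 2 and 3. DX2 spleens 2 and 3 stood above all controls, while DX2 spleen 1 lay within the control range. The difference was 1.07 (SE 0.39) with an adjusted p of 0.248, and 1.51 without DX2 spleen 1. Irf9, which brings STAT2 to DNA, read 7.75, 8.19 and 8.14 in DX2 spleens, against 8.08, 7.94 and 7.80 in control spleens, with a difference of 0.09 (SE 0.15). Stat2, its partner, read 7.13, 8.66 and 8.10 in DX2 spleens, against 8.28, 7.66 and 7.91 in control spleens, with a difference of 0.01 (SE 0.37) and DX2 spleens at both ends of the order.

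The IFIT proteins bind foreign RNA at its 5′ end and block its translation. Ifit1 read 6.83, 8.09 and 7.95 in DX2 spleens, against 7.27, 6.60 and 6.40 in control spleens. DX2 spleens 2 and 3 exceeded all controls and DX2 spleen 1 did not, with a difference of 0.87 (SE 0.36) and an adjusted p of 0.301. Ifit2 read 5.32, 5.89 and 5.41 in DX2 spleens, against 5.45, 5.24 and 5.19 in control spleens, and only DX2 spleen 2 stood above the controls. Ifit3 read 5.77, 6.08 and 6.21 in DX2 spleens, against 6.06, 6.53 and 6.01 in control spleens, with no DX2 spleen above the highest control. The 3 genes lie near one another on chromosome 19 and have close copies, so probe sets of this family are uncertain.

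The oligoadenylate synthetases make the second messenger that activates RNase L. Oas3 read 6.46, 6.66 and 7.46 in DX2 spleens 1, 2 and 3, against 5.82, 5.84 and 6.09 in control spleens 1, 2 and 3. All DX2 spleens were above all control spleens, and the difference was 0.95 (SE 0.25) (adjusted p = 0.141) or 0.77 with a sex term. Oas2, the gene next to Oas3 on chromosome 5, read 5.61, 7.48 and 7.52 in DX2 spleens, against 7.06, 6.59 and 6.31 in control spleens. In Oas2 the DX2 spleens lay on both sides of the controls, and the difference was 0.21 (SE 0.50). The neighbours thus differed in DX2 spleen 1, which was above the controls for Oas3 and below them for Oas2.

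The related Oasl genes belong to the same family, OASL1 being a translational repressor of Irf7 in mouse, and both had DX2 spleens 2 and 3 above the controls. Oasl2 read 5.78, 8.12 and 8.39 in DX2 spleens, against 7.05, 6.17 and 6.52 in control spleens. This was the widest range within DX2 of all members, 2.61 against 0.88 within control. Its difference of 0.85 (SE 0.64) became 1.68 without DX2 spleen 1 and 0.51 without DX2 spleen 2. Oasl1 read 5.83, 6.46 and 6.16 in DX2 spleens, against 5.95, 5.50 and 5.57 in control spleens, with a difference of 0.47 (SE 0.19) and an adjusted p of 0.289.

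**Figure D3:**
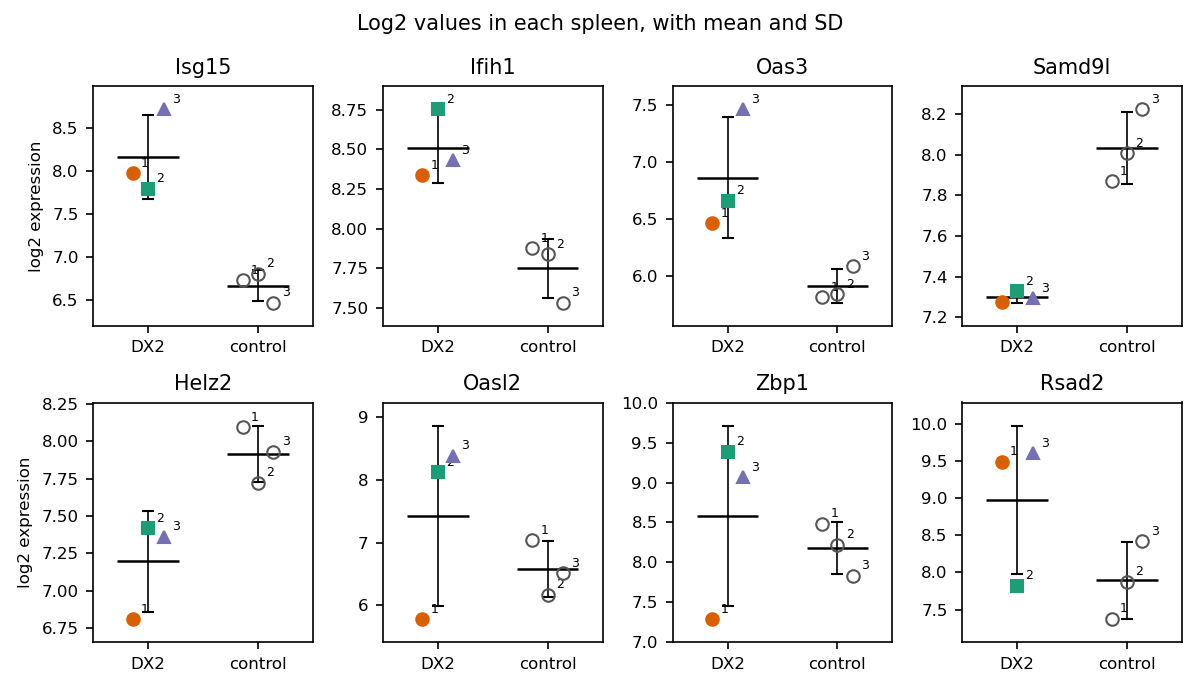
Log2 values of 8 interferon-stimulated genes in each spleen, DX2 left and control right, numbered by replicate; the horizontal line is the mean and the bar the SD over 3 spleens, and each panel has its own axis. Isg15, Ifih1 and Oas3 lie above and Samd9l and Helz2 below the control values in all DX2 spleens, Oasl2 and Zbp1 split DX2 spleen 1 from DX2 spleens 2 and 3, and Rsad2 is high in DX2 spleens 1 and 3.

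Rsad2 and Cmpk2 ordered the spleens in another way. Rsad2 encodes viperin, a radical enzyme that makes a chain-terminating nucleotide, and Cmpk2 a mitochondrial nucleotide kinase. The genes are immediate neighbours on chromosome 12. Rsad2 read 9.49, 7.82 and 9.61 in DX2 spleens 1, 2 and 3, against 7.38, 7.88 and 8.42 in control spleens 1, 2 and 3. DX2 spleens 1 and 3 lay above all controls and DX2 spleen 2 within them, with a difference of 1.08 (SE 0.49), adjusted p = 0.335. The sex-term model gave a difference of 0.55 for Rsad2. Cmpk2 read 7.92, 7.42 and 8.47 in DX2 spleens, against 7.20, 7.40 and 7.49 in control spleens, the same order among the DX2 spleens, with a difference of 0.57 (SE 0.25). These 2 were the only members with DX2 spleens 1 and 3 above and DX2 spleen 2 not above the controls, an arrangement found in 5.41% of members and 7.13% of all genes. The erythroid markers Klf1, Slc4a1, Ermap and Tfrc, 4 measured of 8 listed, were also lowest among the DX2 spleens in DX2 spleen 2. These markers had means of 10.45, 8.14 and 10.16 in DX2 spleens 1, 2 and 3, against 6.88, 8.88 and 8.80 in control spleens 1, 2 and 3. Their part in the values of Rsad2 and Cmpk2 was not tested.

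The other antiviral effectors act on virus particles and membranes. Bst2 encodes tetherin, which holds budding virions at the cell surface, and read 6.07, 8.13 and 7.76 in DX2 spleens, against 7.31, 6.76 and 6.40 in control spleens. DX2 spleen 1 was the lowest array and the other DX2 spleens the highest, with a difference of 0.50 (SE 0.51) over all spleens and 1.12 without DX2 spleen 1. Ifitm3, which blocks fusion of virus with endosomes, read 9.82, 10.32 and 10.58 in DX2 spleens, against 9.98, 9.48 and 9.92 in control spleens, DX2 spleens 2 and 3 exceeding the controls. Mx2, a dynamin-like GTPase, read 4.81, 5.23 and 4.73 in DX2 spleens, against 5.73, 5.16 and 5.53 in control spleens. The mean difference was -0.55 (SE 0.19), with DX2 spleen 2 inside the control range (adjusted p = 0.228). For its neighbour Mx1 the difference was -0.10 (SE 0.29), and 0.08 with a sex term.

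Members of the PARP family modify proteins and RNA during the response. Parp12, which can inhibit viral translation, read 6.95, 8.53 and 8.18 in DX2 spleens 1, 2 and 3, against 7.06, 6.85 and 6.77 in control spleens 1, 2 and 3. DX2 spleens 2 and 3 stood above all controls and DX2 spleen 1 inside them, with a difference of 0.99 (SE 0.37), adjusted p = 0.251. This difference was 1.46 without DX2 spleen 1 and 0.67 without DX2 spleen 2. Parp9, the partner of the ubiquitin ligase DTX3L, read 7.19, 8.56 and 7.96 in DX2 spleens, against 7.92, 7.87 and 7.65 in control spleens, again with DX2 spleen 1 lowest. Parp14, a regulator of STAT signalling, read 7.83, 8.88 and 8.42 in DX2 spleens, against 8.64, 8.45 and 8.48 in control spleens, and the groups overlapped. Helz2, a helicase that acts as a transcriptional coactivator, read 6.81, 7.42 and 7.36 in DX2 spleens, against 8.10, 7.72 and 7.93 in control spleens. All DX2 spleens were below all controls for Helz2, with a difference of -0.72 (SE 0.19) (adjusted p = 0.138).

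Samd9l had the most even difference of the members. SAMD9L is a restriction factor for poxviruses that limits growth of blood cells. It read 7.27, 7.33 and 7.29 in DX2 spleens 1, 2 and 3, against 7.87, 8.01 and 8.22 in control spleens 1, 2 and 3. The DX2 spleens lay within 0.05 of one another and below all controls, and the difference was -0.74 (SE 0.12), -0.93 with a sex term. It missed the threshold over all genes (adjusted p = 0.0646) and passed it when the dimmest 40% of genes were removed (adjusted p = 0.0478).

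Sp100, a component of PML nuclear bodies, was also lower in each DX2 spleen. It read 8.56, 9.34 and 9.43 in DX2 spleens, against 9.94, 9.60 and 9.89 in control spleens, with a difference of -0.70 (SE 0.24) and an adjusted p of 0.215. The other 3 probe sets annotated to Sp100 gave differences of -0.85, -1.02 and -0.53, with overlapping groups in that of -1.02. Near copies of this gene exist on the same chromosome in mouse, so its probe sets are uncertain. Trim30a, which restrains signalling by Toll-like receptors, read 6.13, 7.13 and 6.69 in DX2 spleens, against 7.29, 6.91 and 7.29 in control spleens. Its difference was -0.52 (SE 0.25), with DX2 spleen 2 inside the control range.

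The remaining members followed the split of DX2 spleen 1 from DX2 spleens 2 and 3. Lgals3bp, a secreted galectin-binding glycoprotein, read 8.50, 10.03 and 9.66 in DX2 spleens, against 9.53, 8.57 and 8.97 in control spleens. Xaf1, which promotes apoptosis by opposing XIAP, read 6.18, 7.72 and 7.92 in DX2 spleens, against 7.49, 6.85 and 7.25 in control spleens. For both, DX2 spleen 1 lay below and the other DX2 spleens above all control spleens, and the same held for Rtp4, Slfn5 and Ifi35. Differences over all spleens were between 0.08 (Xaf1) and 0.37 (Lgals3bp) for these 5, and between 0.25 (Ifi35) and 0.82 (Lgals3bp) without DX2 spleen 1. A second, dimmer Ifi35 probe set did not share the split. It read 5.75, 5.55 and 5.55 in DX2 spleens, against 5.84, 5.59 and 5.61 in control spleens. The second Lgals3bp probe set did share it, at 6.91, 8.34 and 7.51 against 7.47, 6.93 and 7.05.

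Of 14 measured ligand, receptor and signalling transcripts 7 had a positive difference (median 0.00), and none was called. The groups did not overlap for 4 of the 14, all lower in DX2 (28.6%, against 11.2% of all genes). Jak1, a kinase of the receptor, read 10.21, 10.18 and 10.27 in DX2 spleens, against 10.51, 10.50 and 10.49 in control spleens. The DX2 values were lower throughout, with a difference of -0.28 (SE 0.10) (adjusted p = 0.217). Ifnar1, a receptor chain, read 8.34, 8.53 and 8.39 in DX2 spleens, against 8.66, 8.60 and 8.64 in control spleens, and Tyk2, the other kinase, 7.50, 7.73 and 7.76 in DX2 spleens, against 7.79, 7.86 and 7.89 in control spleens. Both were lower in all DX2 spleens, at adjusted p of 0.383 and 0.485. Of the ligands, Ifna4 read 6.50, 5.69 and 5.96 in DX2 spleens, against 6.71, 6.73 and 6.17 in control spleens, with overlapping groups. Ifnb1, named after its values were seen, read between 2.63 and 3.02 on all arrays, a level whose relation to the detection floor is not known.

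Of 11 genes that lead to interferon production, 5 had a positive difference (median -0.01), and none was called. Myd88, the adaptor of most Toll-like receptors, read 8.64, 8.50 and 8.36 in DX2 spleens, against 7.94, 7.93 and 7.88 in control spleens. It was higher in all DX2 spleens, DX2 spleen 1 included, by 0.58 (SE 0.11) (adjusted p = 0.0834). Irf3, the factor that starts interferon beta transcription, was lower in all DX2 spleens, with a difference of -0.23 (SE 0.11) (adjusted p = 0.372). Tlr7, a receptor for single-stranded RNA, and Unc93b1, which carries such receptors to endosomes, had overlapping groups, with differences of 0.45 (SE 0.37) and -0.21 (SE 0.15).

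A further list of 37 measured interferon-stimulated genes did not share the positive balance of the members. Of these 16 had a positive and 21 a negative difference, with a median of -0.11. Of the 37, 1 was called, against 0.316% of all genes, namely Ms4a4c, a membrane protein of the CD20 family. Ms4a4c read 6.91, 7.16 and 7.08 in DX2 spleens, against 7.91, 7.92 and 7.89 in control spleens. It was lower by 0.86 (SE 0.11) in DX2 (adjusted p = 0.0387). Its difference was between -0.91 and -0.79 with any 1 array left out, and the call was kept only without DX2 spleen 2 (adjusted p = 0.0359) and lost without each of the other 5 (adjusted p between 0.0637 and 0.198) and with a sex term (adjusted p = 0.348). It was also lost with the replicate number as a block (adjusted p = 0.196), with arrays centred on their medians (-0.77, adjusted p = 0.0603) and among the male spleens (adjusted p = 0.678). Ifitm2, a relative of Ifitm3, read 7.96, 7.56 and 7.56 in DX2 spleens, against 6.63, 6.90 and 6.81 in control spleens, and Apol9a, of the apolipoprotein L family, 6.99, 6.76 and 6.77 in DX2 spleens, against 6.46, 6.52 and 6.38 in control spleens. Both were higher in all DX2 spleens, at adjusted p of 0.0638 and 0.166. Oas1c, a synthetase relative, was lower in all DX2 spleens, with a difference of -0.99 (SE 0.19) (adjusted p = 0.0834). The groups did not overlap for 2 of the 37 higher in DX2 (5.41%, against 10.7% of all genes). They did not overlap for 6 lower in DX2 (16.2%, against 11.2%). DX2 spleen 1 was the lowest DX2 spleen for 26 of the 37. Isg20, an exonuclease named after its values were seen, read 9.10, 7.74 and 9.02 in DX2 spleens, against 7.42, 7.93 and 8.12 in control spleens. As for Rsad2 and Cmpk2, DX2 spleen 2 was the lowest DX2 spleen, but Isg20 was highest in DX2 spleen 1 and those genes in DX2 spleen 3.

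Genes induced mainly by interferon gamma split the DX2 spleens further. DX2 spleen 1 was the lowest DX2 spleen for all 13 measured, whose mean log2 value was 6.73, 9.01 and 8.30 in DX2 spleens 1, 2 and 3, against 7.88, 7.48 and 7.32 in control spleens 1, 2 and 3. Iigp1, a GTPase that attacks the vacuoles of parasites, read 8.06, 10.88 and 9.93 in DX2 spleens, against 8.90, 8.41 and 7.67 in control spleens. Gbp7 and Igtp, GTPases of the same defence, differed by 0.88 (SE 0.47) and 0.89 (SE 0.44). Ciita, the master regulator of MHC class II, differed by -0.76 (SE 0.29), and none of the 13 was called.

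**Figure D4:**
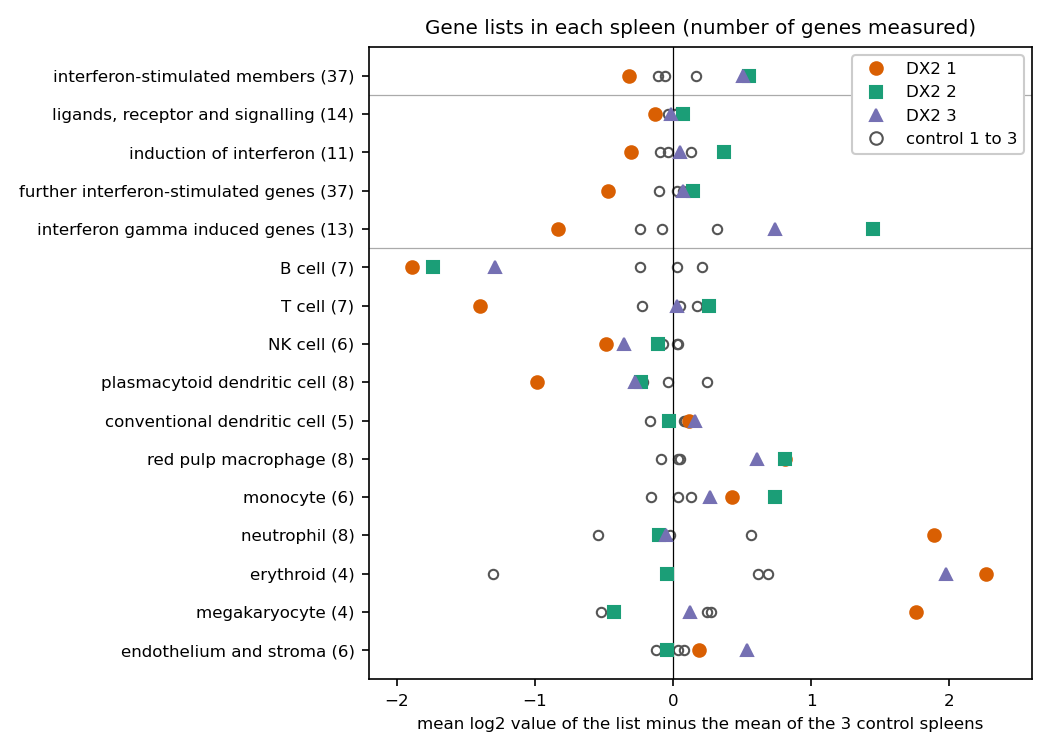
Mean log2 value of each gene list in each spleen, minus the mean of the 3 control spleens, with the number of measured genes in brackets; filled symbols are DX2 spleens and open circles control spleens. The interferon-stimulated members, the genes induced by interferon gamma and the T cell markers are low in DX2 spleen 1, which is high in neutrophil, erythroid and megakaryocyte markers. Erythroid markers are high in DX2 spleen 3 too.

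Markers of some cell types, such as T cells and neutrophils, set DX2 spleen 1 apart, and those of others did not. The 7 measured T cell markers averaged 6.59, 8.25 and 8.02 in DX2 spleens 1, 2 and 3, against 7.76 to 8.17 in control spleens, and DX2 spleen 1 was the lowest DX2 spleen for each of the 7. The 8 plasmacytoid dendritic cell markers averaged 6.16, 6.91 and 6.87 in DX2 spleens 1, 2 and 3, against 6.93 to 7.40 in control spleens. DX2 spleen 1 was the lowest DX2 spleen for 6 of these 8. They did not share 1 order: Siglech, which defines those cells, read 6.18, 5.47 and 6.37 in DX2 spleens 1, 2 and 3, against 6.62 to 7.06 in control spleens. Tcf4, their transcription factor, read 7.29, 8.46 and 7.89 in DX2 spleens 1, 2 and 3, against 8.05 to 8.22 in control spleens, and Pacsin1 read 5.80, 7.46 and 6.22 in DX2 spleens 1, 2 and 3, against 6.08 to 6.49 in control spleens. DX2 spleen 2 thus had the lowest Siglech and the highest Tcf4 and Pacsin1 of the 6 arrays. These 3 were named after their values were seen. The 8 neutrophil markers averaged 9.61, 7.62 and 7.67 in DX2 spleens 1, 2 and 3, against 7.18 to 8.28 in control spleens. B cell markers (7 measured) were low in all DX2 spleens, with averages of 8.26 to 8.87, against 9.92 to 10.36 in control spleens. For all 7 the groups did not overlap (100%, against 11.2% of all genes lower in DX2). Of these 7, 3 were called, against 0.316% of all genes. Of 8 red pulp macrophage markers 7 had a positive difference, with a median of 0.74. Their averages were high in all DX2 spleens, 9.5 to 9.8, against 8.9 to 9.0 in control spleens. The part of these markers in the values of the interferon-stimulated genes was not tested.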

How the data were processed

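RNA from 6 spleens was measured on 1 array each. The deposited values are log2 expression values that the authors made with RMA, per the submitters' processing notes; RMA removes background, brings all arrays to 1 distribution and combines the probes of a probe set, which compresses large differences. Software, version, annotation and build: not given in the sources used here. The log2 scale was inferred from the range (0.771 to 13.3). Of 41345 probe sets, 23521 had 1 gene symbol in the platform annotation, 1814 had several and were not used to name genes, and 16010 were unnamed. Groups and replicate numbers came from the sample titles; the titles call the samples biological replicates and say nothing of litters.

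Differences were fitted over all 22180 genes in R 4.3.3 by lmFit and eBayes of limma 3.58.1, without covariates, with Benjamini-Hochberg adjustment and a threshold of 0.05; the fit was tested on simulated data. Standard errors of the differences had a median of 0.14 over all genes and 0.25 over the members. Values in every spleen were given, in each role group, for up to 4 members of smallest unadjusted p and the member of widest range within DX2; other members are given by their differences, and of each other pathway list up to 4 genes of smallest unadjusted p were named. Members and lists were chosen with earlier results of these data known. Alternatives were each array left out, the replicate number as a block, a filter on dim genes, other variance models, array weights, other scalings, other probe set choices, a sex term, male spleens only, and an adjusted p under 0.1. Promoter sequences and gene order came from RefSeq (GRCm38.p6).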

Additional observations from a re-analysis of the deposited data

How the results depend on the processing

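The number of genes called in all, 70 with all arrays, was between 1 and 370 with 1 array left out: 370 without DX2 spleen 2, 8 without DX2 spleen 1, 5 without control spleen 3 and 1 without each of the others. It was 125 without the dimmest 40% of genes, 547 with array weights, 2 with centred arrays, 2 with a sex term, 0 among the male spleens (with 1 control, whose spread was taken from the DX2 arrays) and 394 at an adjusted p under 0.1. After quantile normalization was repeated, 20 calls were higher and 64 lower in DX2, where the deposited values gave 8 higher and 62 lower. Centring used the median of each array over all 41345 probe sets, unnamed ones included, and not the array medians over genes. It moved the median of all genes to 0.10, and that of the members to 0.34. The number of members called, 0 with all arrays, was between 0 and 2 with 1 array left out (Isg15 and Rsad2 without DX2 spleen 2), 1 without the dimmest genes (Samd9l), and 3 both with array weights and at an adjusted p under 0.1 (Ifih1, Isg15 and Samd9l). The median difference of the members stayed between 0.03 and 0.59.

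With the replicate block 1 gene and 0 members were called, and the members' median was 0.24. Deviations of each gene from its group mean were correlated between DX2 and control arrays. The correlations were -0.32, -0.14 and 0.07 for arrays of the same number, and between -0.21 and 0.33 for arrays of unlike number. The titles name no pairing, and the numbers were not taken to pair the samples.

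For single genes, 25 of 900 alternative values had the opposite sign, none of a called gene. With a sex term and among the male spleens these were Ifit3 (0.0088) and Mx1 (0.0791). With 1 array left out the range crossed 0 for 12 members: Dhx58 (-0.13 to 0.34), Zbp1 (-0.0033 to 1.05), Stat2 (-0.33 to 0.43), Trim25 (-0.017 to 0.16), Oas2 (-0.11 to 0.85), Mx1 (-0.29 to 0.18), Parp9 (-0.24 to 0.45), Parp14 (-0.40 to 0.13), Ifi35 (-0.023 to 0.25), Xaf1 (-0.25 to 0.62), Rtp4 (-0.028 to 0.77) and Slfn5 (-0.046 to 0.53). Fits without an array have fewer samples; the cause of the other shifts was not tested. The pathway genes outside the members were put through the alternatives after their values were seen.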
